A study of Homo sapiens with 414 samples.

Results

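The genes described here are MDM2, CDKN1A, BAX, BAK1, BCL2L1, MCL1, BBC3, PMAIP1 and BCL2L11, that is, p53 target genes and members of the BCL2 family. They were chosen by name, and all 9 were rows of the tables, among 19097 human genes in the single-cell tables and 19084 in the bulk table. H1 and H9 are human embryonic stem cell lines, grown in E8 medium on Matrigel, with no treatment named. The study read the RNA of 92 H1 cells (passages 20 to 30) and 91 H9 cells (passages 25 to 35), each as 1 indexed cDNA library sequenced at both 24 and 96 libraries per lane, and of 48 bulk H1 libraries (passage 16, 48 per lane). Cells were captured on a C1 microfluidic chip and copied into full-length cDNA with SMARTer chemistry, while bulk RNA was poly-A selected and primed with random hexamers. The labels do not say how many chips or cultures each line came from, so each line is treated as 1 sample, and comparisons between lines and with bulk have no p-value. The line, its capture and its passage range differ together between H1 and H9 and cannot be told apart, and cells and bulk H1 also differ in chemistry and passage. Whether the 48 bulk libraries are separate cultures is not in the labels, and their SD may reflect technical variation alone.

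The p53 protein is kept low by MDM2, an E3 ubiquitin ligase whose own gene p53 switches on, which closes a negative feedback loop. CDKN1A (p21) is the p53 target that halts the cell cycle by inhibiting cyclin-dependent kinases, and BBC3 (PUMA) and PMAIP1 (NOXA) are p53 targets that promote apoptosis. In the mitochondrial death pathway, the BH3-only proteins PUMA and BCL2L11 (BIM) bind the protective proteins MCL1 and BCL2L1 (BCL-xL), and NOXA binds MCL1. The effectors BAX and BAK1 perforate the outer membrane once set free. Human embryonic stem cells are known to die readily by this route after DNA damage.

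Promoter sequences are shown for MDM2, PMAIP1 and BAX, the members at least 2-fold from bulk at 10 CPM or more (counts per 1000000 human counts) that hold either motif marked here, together with the upstream MDM2 promoter for contrast. RefSeq (GRCh38.p14) gave windows from 250 bases before to 50 bases after annotated starts for 8 of the 9 members, 12 windows in all, and the 250 bases before the start are printed, 5′ to 3′ on the plus strand. Capitals mark, in MDM2 and PMAIP1, matches to the p53 consensus of 20 bases (a pair of adjoining half-sites, the same on both strands) with at most 3 mismatches, and in BAX the motif CACGTG, an E-box that is also the same on both strands and was chosen after the sequence had been seen.
MDM2 upstream start, chr12:68807922-68808171: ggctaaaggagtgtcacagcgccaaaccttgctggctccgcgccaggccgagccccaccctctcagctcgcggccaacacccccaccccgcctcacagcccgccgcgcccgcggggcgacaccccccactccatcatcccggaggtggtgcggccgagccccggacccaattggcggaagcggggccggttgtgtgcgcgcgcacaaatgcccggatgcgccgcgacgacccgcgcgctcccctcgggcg
MDM2 internal start, chr12:68808767-68809016: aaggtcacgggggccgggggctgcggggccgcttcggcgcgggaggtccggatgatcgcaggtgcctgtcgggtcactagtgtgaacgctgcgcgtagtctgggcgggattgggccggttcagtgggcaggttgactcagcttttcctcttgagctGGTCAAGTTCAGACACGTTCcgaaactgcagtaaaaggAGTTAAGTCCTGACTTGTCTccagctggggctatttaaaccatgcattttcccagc
PMAIP1, chr18:59899746-59899995: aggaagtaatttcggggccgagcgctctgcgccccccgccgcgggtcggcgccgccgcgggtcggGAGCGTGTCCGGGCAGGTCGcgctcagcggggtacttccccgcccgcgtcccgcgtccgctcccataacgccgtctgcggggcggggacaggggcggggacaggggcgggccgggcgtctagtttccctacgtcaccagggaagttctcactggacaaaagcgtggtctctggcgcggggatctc
BAX, chr19:48954625-48954874: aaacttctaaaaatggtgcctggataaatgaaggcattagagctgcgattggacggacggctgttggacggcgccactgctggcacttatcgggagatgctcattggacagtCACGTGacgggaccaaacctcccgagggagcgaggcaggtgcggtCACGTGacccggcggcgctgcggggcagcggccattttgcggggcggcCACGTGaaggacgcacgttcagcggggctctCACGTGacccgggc
The internal MDM2 promoter, known as the one p53 drives, held 2 matches, at bases -94 to -75 with 2 mismatches and at bases -56 to -37 with 3 mismatches, counted back from the start. PMAIP1 held 1 match with 3 mismatches at bases -185 to -166. Over all 35116 windows of the table, 5.20% held at least 1 such match and 0.313% held 2 or more. No such match lay in the windows of the upstream MDM2 start, CDKN1A, BAX, BAK1, BCL2L1, BBC3 or BCL2L11, which says only that the letters are not in those windows. A single p53 half-site with no mismatch lay in the BAK1 window, as in 6.63% of all windows. BAX held CACGTG 4 times, BBC3 held it 1 time, and 7.26% of all windows held it at least 1 time and 0.0142% at least 4 times. These matches are descriptions of sequence and not evidence of binding.

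The median library held 3698610 human counts at 24 per lane in H1 (1136300 to 8096760), 3863510 at 24 per lane in H9 (1568330 to 7758950) and 2965020 in bulk H1 (2099640 to 3964670). At 96 per lane the medians were 852336 in H1 cells and 953327 in H9 cells. All 8 stem cell markers were read in every group, and their summed level was 4317 to 9469 CPM per H1 cell, 3678 to 7228 CPM per H9 cell and 12008 to 13269 CPM per bulk library. In summed H1 cells 4 of the 8 were at least 2-fold lower than in bulk and 1 was higher. The lowest ratio was that of POU5F1, at 177 CPM in H1 cells and 1173 CPM in bulk (log2 -2.73). Summed endoderm and mesoderm markers had a median of 0 CPM over the cells of both lines, with a highest endoderm sum of 30.03 CPM in an H1 cell and 63.001 CPM in an H9 cell. The 4 neuroectoderm markers summed to a median of 112 CPM in H1 cells (3.26 to 388 CPM), 99.1 CPM in H9 cells (4.29 to 401 CPM) and 418 CPM in bulk H1 (256.3 to 631 CPM). Of 7 fibroblast markers, 3 were at 0 in all H1 cells, 2 in all H9 cells and 1 in all bulk libraries, and their summed level was 55.98 to 687 CPM per H1 cell, 72.6 to 547 CPM per H9 cell and 368 to 487 CPM per bulk library. The neuroectoderm and fibroblast sums differ in make-up between cells and bulk. On totals without mitochondrial genes, OTX2 was at 90.1 CPM in summed H1 cells and 17.2 CPM in bulk. NES went the other way, at 25.6 CPM in summed H1 cells and 414 CPM in bulk. Likewise THY1 was at 176 CPM in summed H1 cells and 169 CPM in bulk, and COL1A1 at 6.03 CPM and 132 CPM. The part of these other markers in the ratios to bulk was not tested. Some cells stood apart: 5 H1 and 2 H9 cells had over 10% spike-in counts, under 1% mitochondrial counts or over 20%, and 2 H1 and 4 H9 cells resembled another cell of their line. Leaving out either set of cells changed no call on the 9 genes.

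MDM2 was read in every library and was higher in most cells of both lines than in bulk H1. Per library, on totals without the mitochondrial genes that bulk lacks, MDM2 was at 13.5 CPM in the lowest, 319 CPM in the median and 1234 CPM in the highest H1 cell. In H9 cells the lowest, median and highest levels were 25.1, 314 and 741 CPM, and in bulk H1 they were 100.9, 113 and 174 CPM. Cells and bulk overlapped, but 72 of 92 H1 cells and 70 of 91 H9 cells lay above the highest bulk library. Summed over cells, the H1 level of 355 CPM was 3.09 times the bulk mean of 115 ± 10.9 CPM (SD, n = 48), a log2 ratio of 1.63. One bulk library stood at 174 CPM with the next at 129 CPM. MDM4, which encodes the other main p53 inhibitor, lay further from bulk, at 268.2 CPM in H1 cells and 41.4 CPM in bulk (log2 2.69), so that the ratio of MDM2 to MDM4 counts was 1.32 in summed H1 cells, 1.24 in summed H9 cells and 2.77 in bulk H1.

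CDKN1A was the member seen in the fewest cells. It had reads in 13 of 92 H1 cells (14.1%, exact binomial interval 7.74 to 22.95%) and in 6 of 91 H9 cells (6.59%, 2.46 to 13.8%), while all 48 bulk libraries had reads. Its level in bulk was low too, from 1.42 to 7.65 CPM with a median of 3.21 CPM. A few cells held most of its reads: the 3 highest H1 cells had 136.9, 100 and 63 of the 318.9 CDKN1A counts of their line, and the highest H9 cell held 86.8% of the counts of its line. The highest cells stood at 41.8 CPM (H1) and 22.1 CPM (H9). In all, 3 H1 cells and 1 H9 cell were above every bulk library. The summed H1 level of 0.975 CPM lay under the mean of 3.46 ± 1.21 CPM in bulk H1 (log2 -1.83), but neither reached the 10 CPM set as the minimum for a call.

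PMAIP1, which encodes the BH3-only protein NOXA, was read in every cell and was higher in nearly all cells than in bulk. It ran from 25.7 CPM in the lowest to 435 CPM in the median and 984 CPM in the highest H1 cell, and from 37.1 to 529 and 1715 CPM in H9 cells. Bulk H1 libraries were at 132, 157 and 196 CPM (lowest, median, highest). Of the cells, 86 of 92 in H1 and 87 of 91 in H9 were above every bulk library. The summed H1 level of 441 CPM was 2.81 times the bulk mean of 157 ± 16.0 CPM (SD, n = 48), a log2 ratio of 1.49. With the trend of the ratios on transcript GC content removed, the log2 ratio was 0.98, which is under 2-fold.

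BBC3, which encodes PUMA, was nearly unread in cells. It had reads in 29 of 92 H1 cells and 25 of 91 H9 cells, and at most 12 counts in any cell. The highest H1 cell had 3.26 CPM and the highest H9 cell 2.48 CPM, against 2.73, 5.30 and 8.15 CPM in the lowest, median and highest bulk library. All but 2 H1 cells and all H9 cells lay below the lowest bulk library. The level of 0.269 CPM in summed H1 cells and 5.14 ± 1.22 CPM in bulk gave a log2 ratio of -4.25, with both under 10 CPM. BBC3 has the highest transcript GC content of the members, 69.7%, above 99.5% of all genes, and the ratio was -1.27 with the GC trend removed. The BH3-only genes PMAIP1 and BBC3, both known p53 targets, lay on opposite sides of bulk, BBC3 at levels too low for a call. PMAIP1 counts exceeded BBC3 counts 1639-fold in summed H1 cells, 3173-fold in summed H9 cells and 30.6-fold in bulk H1. The ratios in cells rest on 88.1 BBC3 counts in H1 and 62.54 in H9, and were 1048 and 3984 at 96 per lane. PMAIP1 has the lowest transcript GC content of the members, 37.2%, and no GC correction was applied to these ratios.

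BCL2L11, which encodes BIM, did not differ 2-fold from bulk in the sum, and its counts came from a part of the cells, as for other genes of its level. It was read in 88 of 92 H1 cells and 74 of 91 H9 cells, with a median of 2.70 CPM and a highest value of 116 CPM in H1 and a median of 1.48 CPM and a highest value of 66.8 CPM in H9. Bulk H1 ran from 10.2 to 24.6 CPM with a median of 16.4 CPM. Thus 66 H1 and 73 H9 cells were below every bulk library, and 15 H1 and 9 H9 cells were above every one. The 9 highest cells carried 56.7% of the BCL2L11 counts in H1 and 62.4% in H9. Its spread over cells was larger than that of 57.7% of all genes in H1 and of 44.2% in H9, each set against genes of like level. The summed level was 13.2 CPM in H1 cells, against 16.1 ± 3.10 CPM in bulk (log2 -0.28).

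The effectors BAX and BAK1 differed from each other in how they were seen. BAX was read in 89 of 92 H1 cells and 85 of 91 H9 cells, but nearly always at a few counts. Its levels were 0, 1.30 and 16.7 CPM in the lowest, median and highest H1 cell, 0, 1.23 and 41.4 CPM in H9 cells, and 19.3, 27.7 and 37.0 CPM in bulk H1. Every H1 cell was below every bulk library, and so were 90 of 91 H9 cells, the exception being 1 cell above all of bulk. Summed H1 cells held 2.30 CPM, against 28.1 ± 4.42 CPM in bulk (SD, n = 48), which is 12.2-fold lower (log2 -3.61). With the GC trend removed the log2 ratio was -2.81.

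BAK1 was read in fewer cells than BAX, and most of its counts came from few cells. It had reads in 67 of 92 H1 cells and 44 of 91 H9 cells, with medians of 1.78 CPM in H1 and 0 CPM in H9 and highest values of 89.2 CPM in H1 and 89.7 CPM in H9. Bulk H1 libraries ran from 10.6 to 23.7 CPM with a median of 18.1 CPM. The 9 highest cells held 55.7% of all BAK1 counts in H1 and 69.9% in H9, and its spread, set against genes of like level, was larger than that of 49.4% of all genes in H1 and of 71.1% in H9. In the sum, H1 cells were at 11.3 CPM and bulk at 18.1 ± 3.07 CPM, a log2 ratio of -0.68. That is not a 2-fold difference, and the log2 ratio was 0.10 with the GC trend removed. The ratio of BAX to BAK1 counts was 0.204 in summed H1 cells, 0.376 in summed H9 cells and 1.57 in bulk H1. Reads of both effectors were found in 64 of 92 H1 cells and 42 of 91 H9 cells, and of at least 1 of them in all 92 H1 cells and 87 H9 cells.

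MCL1, the short-lived protective protein that NOXA binds, was the only member for which every cell of both lines lay below bulk. H1 cells had 0.748, 58.2 and 397 CPM and H9 cells 0, 47.9 and 376 CPM (lowest, median, highest), against 451, 480 and 563 CPM in bulk H1. All 92 H1 cells and all 91 H9 cells were below the lowest of the 48 bulk libraries. The summed H1 level of 72.7 CPM was 6.62-fold lower than the bulk mean of 482 ± 21.1 CPM (SD, n = 48), a log2 ratio of -2.73. MCL1 transcripts have a GC content of 45.1%, above that of 35.3% of all genes, and the log2 ratio was -2.80 with the GC trend removed.

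BCL2L1, which encodes BCL-xL, was also lower in cells, but with overlap. Its lowest, median and highest levels were 0, 8.92 and 85.98 CPM in H1 cells, 0, 3.76 and 125 CPM in H9 cells, and 34.1, 42.4 and 52.7 CPM in bulk H1. Below every bulk library were 83 of 92 H1 and 82 of 91 H9 cells, and 3 H1 and 6 H9 cells were above every one. The sum of H1 cells was 12.5 CPM, against 42.4 ± 4.77 CPM in bulk (log2 -1.77; -1.24 with the GC trend removed). Reads of MCL1, BCL2L1 or both were present in every cell of both lines, and of both genes in 79 of 92 H1 and 65 of 91 H9 cells.

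**Figure D1:**
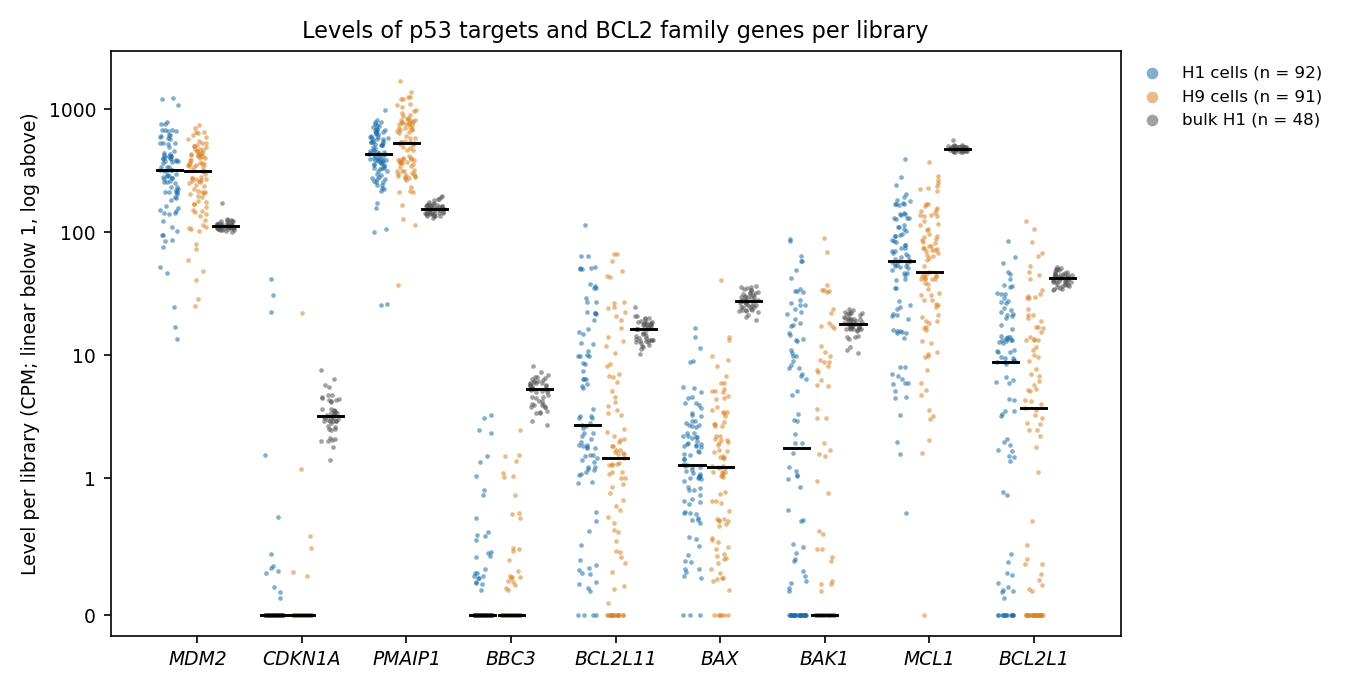
Level of each gene in every library, in CPM without mitochondrially encoded genes (y axis, linear below 1 CPM and logarithmic above), for 92 H1 cells, 91 H9 cells and 48 bulk H1 libraries; points are libraries and black bars medians. MDM2 and PMAIP1 lie mostly above bulk in cells, and MCL1 and BAX below it, with every cell below bulk for MCL1.

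A ratio between genes within a library does not depend on how totals are scaled. MCL1 counts per PMAIP1 count had a median of 0.126 over H1 cells (0.00271 to 2.33), of 0.115 over H9 cells (0 to 1.11) and of 3.05 over bulk libraries (2.59 to 3.60). With no correction for length, MCL1 counts exceeded PMAIP1 counts in 1 of 92 H1 cells, 1 of 91 H9 cells and 48 of 48 bulk libraries, and the highest cell of either line was below the lowest bulk library. Together the 9 genes summed to 854 CPM in H1 cells, 952 CPM in H9 cells and 865 CPM in bulk H1, on totals that include mitochondrial genes in the cells. PMAIP1 made up 48.5% of that sum in H1 cells, 58.4% in H9 cells and 18.02% in bulk. MDM2 made up 39.002% in H1 cells, 31.3% in H9 cells and 13.3% in bulk, and MCL1 made up 7.997% in H1 cells, 7.25% in H9 cells and 55.6% in bulk.

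**Figure D2:**
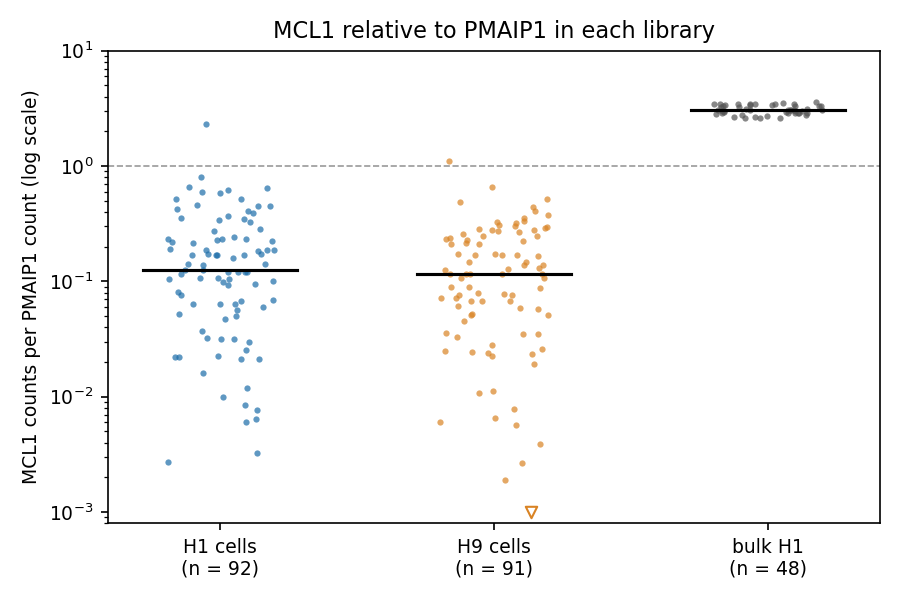
MCL1 counts per PMAIP1 count in each library (logarithmic y axis) for 92 H1 cells, 91 H9 cells and 48 bulk H1 libraries; black bars are medians, the dashed line marks equal counts, and the open triangle is 1 H9 cell with no MCL1 count. All bulk libraries lie between 2.59 and 3.60, above every cell.

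Set against the whole table, 7 of the 9 genes reached 10 CPM in H1 cells or bulk H1, and 5 of those 7 were at least 2-fold apart, where 51.6% of the 9647 genes compared were. MDM2 and PMAIP1 were higher in H1 cells, with 30.1% of all genes that far above bulk, and BAX, MCL1 and BCL2L1 were lower, with 21.5% of all genes that far below. Differences of this size were common over the table, and nothing is read from the members' count alone. The median log2 ratio was -0.68 for the 7 genes and 0.24 for all genes compared. With TMM scaling (edgeR's normalization factors) the median of all genes was 0.05 and 50.5% in place of 58.3% of the genes past 2-fold were higher in cells, and the 5 calls on these genes kept their directions. In position among all genes, BAX had a ratio above that of 2.80% of them and MCL1 above that of 5.28%, while MDM2 was above 83.2% and PMAIP1 above 80.6%. Bulk RNA cannot tell fewer cells with a transcript from less transcript per cell, and the part of chemistry, passage and capture in these ratios was not tested.

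**Figure D3:**
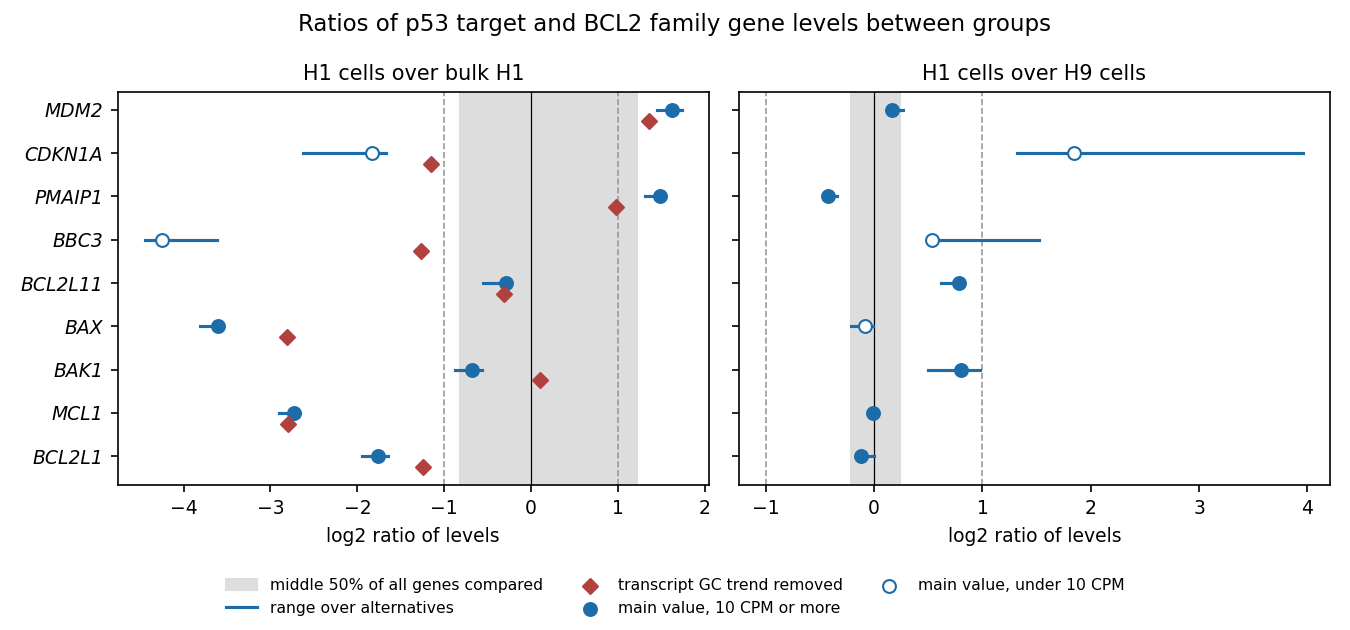
log2 ratio of the level of summed H1 cells to bulk H1 (left) and to summed H9 cells (right) for each gene; filled circles mark genes that reached 10 CPM in 1 of the groups compared, open circles those that did not, blue lines the range over alternative processing, red diamonds the ratio with the GC trend removed, grey bands the middle 50% of all genes and dashed lines 2-fold. Against bulk, 5 filled circles lie past 2-fold, as do the open circles of CDKN1A and BBC3, and MCL1 hardly moves with the GC correction. Between lines no filled circle lies past 2-fold.

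Base composition moved with the ratio to bulk over the whole table. The median log2 ratio of H1 cells over bulk was 0.82 in the tenth of genes with the lowest transcript GC and -1.30 in the tenth with the highest. PMAIP1 (37.2% GC) and MDM2 (41.9%) are at the low end and were higher in cells, while BAX (58.9%), BAK1 (58.8%), CDKN1A (58.1%), BCL2L1 (56.9%) and BBC3 are at the high end and had ratios below 0. MCL1 and BCL2L11 (45.7%) are in between. Of the 5 genes past 2-fold, 4 remained so with the trend removed, PMAIP1 being the exception.

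**Figure D4:**
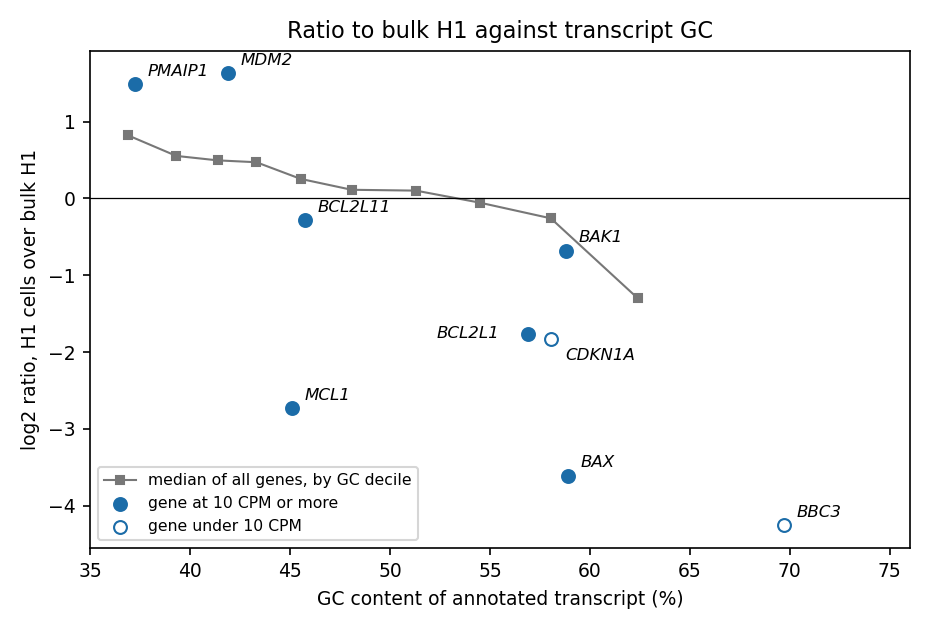
log2 ratio of H1 cells over bulk H1 (y axis) against the GC content of each gene's annotated transcript in percent (x axis), with grey squares for the medians of all genes in GC deciles. The medians run from 0.82 to -1.30; MCL1 at -2.73 and BAX at -3.61 lie well below the median of genes of like GC content, and MDM2 at 1.63 lies above it.

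Between the lines, 0 of the 6 genes that reached 10 CPM in at least 1 line were 2-fold apart, where 4.06% of the 8851 genes compared were. With 6 genes nothing is read from that count. The levels in this comparison are of summed cells at 24 per lane, with mitochondrial genes in the totals and exact Poisson 95% intervals, which take reads as independent and cover counting error only. MCL1 was at 68.3 CPM (67.5 to 69.2) in H1 and 69.002 CPM (68.1 to 69.9) in H9, a log2 ratio of -0.01 (-0.05 to 0.02). BCL2L1 was at 11.7 CPM (11.4 to 12.1) in H1 and 12.8 CPM (12.4 to 13.2) in H9, a log2 ratio of -0.13. MDM2 was at 333 CPM (331 to 335) in H1 and 298 CPM (296.3 to 299.9) in H9, a log2 ratio of 0.16. These 3 ratios lie within the middle 50% of all genes, which runs from -0.22 to 0.24.

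PMAIP1, BAK1 and BCL2L11 lay outside that range but under 2-fold, with ratios above those of 13.1% (PMAIP1), 96.9% (BAK1) and 96.7% (BCL2L11) of all genes. PMAIP1 was lower in H1, at 415 CPM (412.6 to 416.9), than in H9, at 556 CPM (554 to 559), a log2 ratio of -0.42. BAK1 was at 10.6 CPM (10.3 to 10.95) in H1 and 6.08 CPM (5.83 to 6.34) in H9 (log2 0.80), and BCL2L11 at 12.4 CPM (12.04 to 12.8) in H1 and 7.22 CPM (6.94 to 7.501) in H9 (log2 0.78). At a limit of 1.5-fold these 2 genes would pass at 24 per lane. At 96 per lane the log2 ratio of BCL2L11 was 0.83, but that of BAK1 was 0.50, which is under 1.5-fold. BAK1 was also under 10 CPM in both lines at that depth (9.28 CPM for H1, 6.56 CPM for H9). Without the highest cell of each line the log2 ratios were 0.97 for BAK1 and 0.61 for BCL2L11. BAK1 also had reads in more H1 cells than H9 cells, 67 of 92 (72.8%, 62.6 to 81.6%) against 44 of 91 (48.4%, 37.7 to 59.1%), and after thinning each cell to 1000000 counts in 56 of 92 H1 and 35 of 91 H9 cells. With each line as 1 sample these differences have no replicate check.

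The 3 genes under 10 CPM in both lines were BAX, CDKN1A and BBC3. BAX had 2.16 CPM (2.01 to 2.32) in H1 and 2.29 CPM (2.13 to 2.45) in H9, a log2 ratio of -0.08 (-0.29 to 0.12). CDKN1A had 0.916 CPM (0.819 to 1.02) in H1 and 0.255 CPM (0.205 to 0.313) in H9, a log2 ratio of 1.84. That ratio was 3.96 without the highest cell of each line and 1.32 at 96 per lane. BBC3 had 0.253 CPM (0.203 to 0.312) in H1 and 0.175 CPM (0.136 to 0.226) in H9, a log2 ratio of 0.53 (-0.16 to 1.199), which was 1.53 at 96 per lane.

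The same cDNA read at 2 depths gave like levels for the members above 10 CPM but different numbers of cells with reads. Levels at 24 per lane divided by those at 96 per lane gave a median log2 ratio over the 9 genes of 0.05 for H1 and 0.03 for H9. The ratios ran from -0.64 (BBC3) to 0.31 (CDKN1A) in H1 and from -0.22 (CDKN1A) to 0.36 (BBC3) in H9, and MDM2, PMAIP1, MCL1 and BCL2L1 were between -0.03 and 0.05 in both lines. MDM2 and PMAIP1 had reads in every cell at both depths. BAX had reads in 89 H1 cells at the greater depth and 59 at the lesser one, and in 85 and 58 H9 cells. In H1, BCL2L11 had reads in 88 cells at the greater depth and 69 at the lesser one, BCL2L1 in 79 and 70, BAK1 in 67 and 56, BBC3 in 29 and 18, and CDKN1A in 13 and 6. Thinned to 1000000 counts, H1 cells at 24 per lane gave 65 with BAX, 69 with BCL2L11, 14 with BBC3 and 7 with CDKN1A, and H9 cells gave 66, 62, 10 and 3. The same thinning left CDKN1A reads in 47 of 48 bulk libraries and BAX reads in all 48. A cell without reads of BAX, BBC3 or CDKN1A is therefore a cell below detection at its depth and not one shown to lack the transcript.

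**Figure D5:**
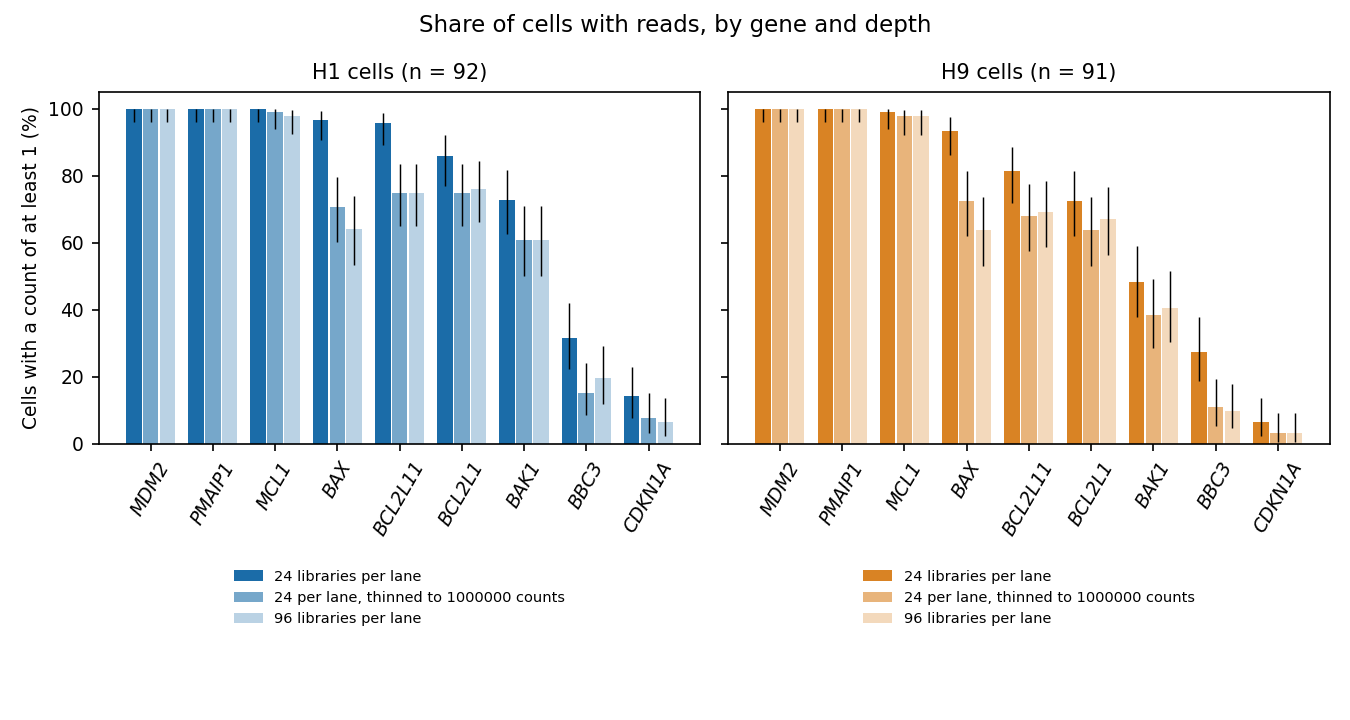
Percentage of cells with a count of at least 1 for each gene, in 92 H1 cells (left) and 91 H9 cells (right), at 24 libraries per lane, at 24 per lane thinned to 1000000 counts, and at 96 per lane; error bars are exact binomial 95% intervals over cells. MDM2 and PMAIP1 are at 100% at both depths, BAX drops most between depths, and CDKN1A is lowest in both lines.

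Divided by the length of the longest annotated coding transcript (GENCODE release 29), the levels of the genes can be set beside each other. In H1 cells PMAIP1 was first with 213 CPM per kilobase, followed by MDM2 with 26.4, MCL1 with 17.4, BAK1 with 4.79, BCL2L1 with 4.49, BCL2L11 with 2.37, BAX with 1.59, CDKN1A with 0.404 and BBC3 with 0.138. BAK1 and BCL2L1 are neighbours in that order whose levels per kilobase differ by less than the spread over cells of either gene, and H9 cells have them in the other order (2.75 for BAK1 and 4.90 for BCL2L1). In bulk H1 the order was MCL1 with 122 CPM per kilobase, PMAIP1 with 80.1, BAX with 20.9, BCL2L1 with 16.3, MDM2 with 9.08, BAK1 with 8.20, BCL2L11 with 3.07, BBC3 with 2.77 and CDKN1A with 1.52. Places depend on the transcript taken. For MDM2, the longest annotated form has 12633 bases and the median one 798, and with the median length it comes to 418 CPM per kilobase in H1 cells and 144 in bulk, first in both. By median length BCL2L1 (12.8 CPM per kilobase) and BCL2L11 (8.15) come before BAK1 (4.96) in H1 cells, and BCL2L11 (10.6) comes before BAK1 (8.49) in bulk.

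Cells differed from each other in which of the genes they showed. A median of 7 of the 9 genes had reads per H1 cell (5 to 9) and 6 per H9 cell (3 to 9), and all 9 were seen in 5 H1 cells, 1 H9 cell and 48 of 48 bulk libraries. Spread between cells was measured as the squared coefficient of variation, on a log2 scale relative to the genes nearest in mean level, so that 0 is the spread of like genes. MDM2 was at 1.46 in H1 and 0.42 in H9, PMAIP1 at 0.25 in H1 and 1.12 in H9, and MCL1 at 0.60 in H1 and 0.54 in H9. BAX was among the more even of the weakly read genes, at -2.18 in H1 and -1.08 in H9, and at -2.10 in H9 without its highest cell. CDKN1A was at 1.31 in H1 and 1.21 in H9. BCL2L11 (0.17 in H1 and -0.12 in H9), BAK1 (0 in H1 and 0.46 in H9) and BCL2L1 (-0.43 in H1 and 0.02 in H9) were near like genes, and BBC3 was at -2.53 in H1 and -3.19 in H9. Between bulk libraries the coefficient of variation ran from 4.38% for MCL1 to 35.1% for CDKN1A. Counting alone would give an SD of 12.8 CPM for MCL1 in bulk, where 21.1 CPM was observed, and of 1.08 CPM for CDKN1A, where 1.21 CPM was observed.

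No pair of the genes moved together strongly from cell to cell. Of the 36 pairs, the highest Spearman correlation of CPM was 0.28 in H1 cells (CDKN1A with BBC3, n = 92). In H9 cells it was 0.33 (BAX with BBC3, n = 91). Both are with BBC3, which had reads in 29 of 92 H1 and 25 of 91 H9 cells. BAK1 and PMAIP1 also reached 0.28 over H1 cells but were at -0.08 over H9 cells. MDM2 and PMAIP1 correlated at 0.25 over H1 cells and 0.08 over H9 cells, and MCL1 and PMAIP1 at 0.10 over H1 cells and 0.09 over H9 cells. All of these share library totals and are given as descriptions. Correlations with the mean log2 level of 13 G1/S or 13 G2/M genes stayed between -0.15 and 0.17 for every member in both lines at 24 per lane. For the 6 genes with reads in at least 50% of cells of both lines, the genes most like each were sought among 10644 genes by the lower of the H1 and H9 correlations, and the highest were weak. MDM2 was nearest to HMGCS1 (0.26 in H1 and 0.33 in H9), LARS, SRP9, TMEM55B and BCL11A. PMAIP1 was nearest to MAD2L1 (0.30 in H1 and 0.31 in H9), C16orf72, VPS33A, PCF11 and MZT1. MCL1 was nearest to ADAT1, SERPING1, IFIT3, AIFM2 and PET117, BCL2L1 to PHLPP2, ILVBL, MIOS, THTPA and C9orf139, BAX to SBF2, TAOK2, CAPNS1, C16orf88 and C16orf57, and BCL2L11 to NAMPT, C5orf64, ZNF440, MAK and C14orf182. Of these 30 genes, 10 were again among the nearest 5 at 96 per lane, 4 each for MDM2 and PMAIP1 and none for BAX or BCL2L11.

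Other genes of the pathway were described from lists of 65 genes. MDM4 was at 251.98 CPM in H1 cells and 241 CPM in H9 cells (log2 0.07). Between lines, 40 of the 65 genes reached 10 CPM, and their median log2 ratio was 0.04, with 0.02 for all genes. Of these, 1 was at least 2-fold higher in H1 and 1 at least 2-fold lower. Over all 8851 genes compared 4.06% were 2-fold apart, so nothing is read from that count. The higher one was DDB2, a damage-recognition factor of nucleotide excision repair, with 18.6 CPM in H1 cells against 9.22 CPM in H9 cells (log2 1.02). The lower one was BOK, a BAX-like member of the BCL2 family, with 7.85 CPM in H1 cells against 16.3 CPM in H9 cells (log2 -1.05).

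Against bulk, 41 of the 65 genes reached 10 CPM, 11 were at least 2-fold higher in H1 cells and 5 lower, with a median log2 ratio of 0.56, against 30.1% of all genes higher, 21.5% lower and a median of 0.24. All 10 caspase pathway genes at that level had ratios above 0, as the median of all genes did, and 4 of them were past 2-fold. Among the 4 were CASP2 at 272.7 CPM in H1 cells and 34.01 CPM in bulk (log2 3.00) and CYCS. CYCS, which encodes cytochrome c, was at 726 CPM in H1 cells and 257.3 CPM in bulk (log2 1.496). Of 10 p53 repair and metabolism targets at that level, 4 were also at least 2-fold higher and 0 lower. Of the p53 arrest and feedback targets, CCNG1 was at 619 CPM in H1 cells and 182 CPM in bulk (log2 1.77), and the growth-arrest gene GADD45A at 3.12 CPM in H1 cells and 15.9 CPM in bulk (log2 -2.35). Among death targets, PERP was at 66.9 CPM in H1 cells and 155 CPM in bulk (log2 -1.22). Of the BH3-only genes outside the 9, BID was at 53.6 CPM in H1 cells and 19.5 CPM in bulk (log2 1.46), and BMF at 1.39 CPM in H1 cells and 14.98 CPM in bulk (log2 -3.43). None of the other antiapoptotic members (BCL2, BCL2L2, BCL2A1 and BCL2L10) reached 10 CPM in either set, and they summed to 3.48 CPM in H1 cells and 12.1 CPM in bulk.

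Stress lists moved unevenly against bulk. Of 8 immediate-early genes at 10 CPM or more, 2 were at least 2-fold higher in H1 cells and 4 lower, including EGR1 at 61.9 CPM in H1 cells and 9.69 CPM in bulk (log2 2.68) and JUN at 1.51 CPM in H1 cells and 13.3 CPM in bulk (log2 -3.14). Of 11 amino acid and unfolded protein response genes, 5 were higher and 2 lower, with DDIT3 at 12.05 CPM in H1 cells and 3.13 CPM in bulk (log2 1.95) and PPP1R15A at 2.97 CPM in H1 cells and 50.002 CPM in bulk (log2 -4.07). Of 13 G2/M genes, all had ratios above 0 and 5 were at least 2-fold higher, with a median log2 ratio of 0.78. Of 13 G1/S genes, 8 had ratios below 0, 2 were at least 2-fold higher and 2 lower, and the median was -0.24. Over all genes 30.1% were at least 2-fold higher and 21.5% lower, and the median log2 ratio of 0.24 was itself above 0. The part of these programmes in the members' ratios was not tested.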

How the data were processed

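Values are expected counts per gene, deposited by the authors in 1 table per group of libraries and used with no further scaling. Bases were called with CASAVA 1.8.2, and reads of 51 bp were mapped to hg19 transcripts with Bowtie 0.12.8 and RSEM 1.2.3, per the submitters' processing notes; the annotation is not given in the sources used here. All columns matched sample titles. The genes and lists were chosen with earlier results of these data known, so no count here is independent support for a pattern.

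CPM are counts per 1000000 human counts, without the 92 spike-in sequences. Cells at 24 per lane were summed per line, and ratios were read by size, at 2-fold and 10 CPM or more in either group; against bulk, totals left out 13 mitochondrially encoded genes and the bulk mean was used. Counts were rounded only for intervals, detection (at least 1 count), thinning and, as group sums, for the TMM and median-of-ratios factors. Intervals are exact Poisson for sums and Clopper-Pearson for shares, at 95%. No floor was needed for the ratios given for named genes, which had counts in both groups compared. Over the whole table, a gene with no counts in 1 group was set to 3 counts there. Transcript length and GC came from GENCODE 29, with a value for 99.3% of genes compared, and the GC trend was a lowess fit with a span of 0.3. Depths were paired by cell number, which the labels give to the same cDNA; each of 92 H1 and 91 H9 cells matched its own number best. Named genes outside the 9 were up to 4 per list with the largest ratios, MDM4, and the 5 nearest genes; 1 other gene that the rule names is not reported here. Alternatives were the other depth, TMM and median-of-ratios factors, equal cell weights, other limits, fewer cells, mitochondrial genes left out and removal of the GC trend. Scripts were tested on simulated data. Software was Python 3.11.15, pandas 2.3.3, scipy 1.17.1, statsmodels 0.14.6, R 4.3.3 and edgeR 4.0.16.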

Additional observations from a re-analysis of the deposited data

How the results depend on the processing

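Between lines, the count of the 9 genes past 2-fold was 0 under every alternative except a limit of 1.5-fold. With that limit it was 2 at 24 per lane (BAK1 and BCL2L11), and BAK1 was under the limit at 96 per lane. The count over all genes was 359 and moved to 1515 with a minimum of 1 CPM and to 1282 at 1.5-fold. Against bulk, the count over the 9 genes and over all genes stayed within 1.5 times of its value under each alternative, and no called ratio changed sign. Removing the GC trend took PMAIP1 to 0.98 and left 4 of the 9 genes past 2-fold. A minimum of 1 CPM brought CDKN1A and BBC3 past 2-fold below bulk, and a limit of 1.5-fold brought in BAK1. With a replicate block, the ratio of 24 over 96 per lane was taken within each cell, as a median over cells. The members' median log2 ratio was then -0.13 in H9, in place of 0.03, and -0.01 in H1. Only cells with reads at both depths entered, for example 6 H9 cells for BBC3 and 3 for CDKN1A. The H9 median of -0.13 is the value of BCL2L1, over 59 cells. The part of requiring reads at both depths in these ratios was not tested, and no shift in level is read from them. No other result here is paired. Of the 30 genes most like a member, 10 were named again at 96 per lane. Shares of cells with reads moved outside their binomial interval in 21 of 36 checks by a minimum of 5 counts or by thinning, all downward, and the spread moved by over 0.5 in 6 of 53 checks. CDKN1A in H9 gave no spread without its highest cell, as its mean then fell under 0.1 CPM. The cause was not tested in any of these. Depth limits BAX, BBC3 and CDKN1A in single cells, where a missing read does not show a missing transcript.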

Other observations

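Estimated counts that are not whole show where reads were divided between genes or alignments. At a tolerance of 0.05, MDM2 had such a count in 77 of 92 H1 cells, 77 of 91 H9 cells and 46 of 48 bulk libraries, and PMAIP1 in 59 H1 cells, 71 H9 cells and 0 bulk libraries. BCL2L11 had one in 71 H1 cells, 58 H9 cells and 4 bulk libraries. MCL1 had one in 27 H1 cells, 33 H9 cells and 0 bulk libraries. Over all genes with a mean count of at least 100, the median share of libraries with a count that is not whole was 40.2% in H1 cells, 39.6% in H9 cells and 0% in bulk H1.

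Stretches of 51 bases, the length of a read, were also compared between annotated transcripts (GENCODE release 29), an addition made after the data had been seen. Of the windows of the longest coding transcript, 34.2% for BCL2L1 were also held by ABALON, 14.4% for BAK1 by BAK1P1 or GGNBP1, 13.1% for BCL2L11 by MIR4435-2HG and 11.8% for MDM2 by other genes, 855 in number. Restricted to genes of the deposited tables, the shares were 0% for BCL2L1, BAK1 and BCL2L11 and 3.74% for MDM2. CDKN1A, MCL1, BBC3 and PMAIP1 shared none, and BAX shared 0.0765% with ARHGAP8. The levels of BCL2L1, BAK1, BCL2L11 and MDM2 are uncertain to the extent that reads of the other genes were assigned to them. PMAIP1 and MCL1 shared no window yet had counts that are not whole in cells, so the windows do not account for all divided reads, and their levels are uncertain to that extent too.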
